A study of Mus musculus with 4 samples.

Results

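Collagen genes, taken as every gene whose symbol begins with Col, a type number and an alpha chain number, made up 44 of the 22063 genes in the deposited table. They comprise 11 chains of the fibrillar types, 9 of basement membranes (types IV, VII, XV and XVIII) and 24 of other types. Total RNA was isolated from ID8, a mouse ovarian cancer cell line, and its polyadenylated fraction was sequenced. The shCtrl group (2 libraries, genotype given as WT) carried a control shRNA, and the shUSP9X group (2 libraries) carried shRNA against USP9X, a deubiquitinating enzyme placed by the study in the response to TGF-β. The cells of both groups come from 1 cell line, and the sources used here do not state whether TGF-β1 was added, the oxygen level, or whether the libraries of a group came from separate cultures, so p-values measure only the spread between these libraries, which may be technical. More than a single hairpin against mouse USP9X is listed in the supplement, the names of the shUSP9X libraries end in unexplained numbers, and whether these libraries share a hairpin or a clone is not given, so their spread may include that of hairpins or clones. The estimated counts of a library added up to 17232006 and 15611363 for shCtrl, and to 19978889 and 17021261 for shUSP9X.

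A collagen molecule is a triple helix of alpha chains that are hydroxylated and folded in the endoplasmic reticulum before they leave the cell. Fibrillar collagens are then trimmed and cross-linked into the fibrils that give stroma its tensile strength, whereas type IV chains form the sheet-like network on which epithelia rest. Collagen genes are widely known as targets of TGF-β, and ovarian cancer cells meet collagen matrix when they attach to the lining of the peritoneum.

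The targeted gene was examined first. Usp9x (chrX:13071498-13173328, GRCm38) was measured at 298 and 282 CPM (counts scaled to a common library size by the TMM method of edgeR) in the shCtrl libraries and at 19.7 and 20.5 CPM in the shUSP9X libraries. The groups did not overlap, and the target was low in the libraries labelled shUSP9X. Its log2 fold change, here always shUSP9X minus shCtrl, was -3.85 (SE 0.06, adjusted p = 4.7e-26, edgeR's quasi-likelihood test, Benjamini-Hochberg adjusted across 11448 genes). An offset that removes each library's trend on GC content and transcript length left a difference of -2.25.

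The labelled cell type and other cells that a culture could hold were then checked by marker genes. Of 13 markers of ovarian surface epithelium and mesothelium, 11 passed the filter on low counts, with Krt19, a keratin, the most abundant at 703 and 711 CPM in shCtrl and 786 and 751 CPM in shUSP9X. Wt1, Msln, Gata4 and Cdh2 were lower in shUSP9X and Krt8, Krt18, Krt19 and Upk1b were higher, with Krt19 turning (-0.23) under the offset. The calls of Gata4 (-0.18) and Krt19 (0.12) were each lost under some alternatives, with adjusted p up to 0.169 and 0.172. Lrrn4, which passed the filter only through shCtrl, had 23 and 17 counts there against 9 and 5 in shUSP9X. Krt7 and Pax8, markers used for ovarian carcinoma, had at most 9 counts in any library. The summed level of the list was 2756 and 2797 CPM in shCtrl and 3175 and 3126 CPM in shUSP9X.

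Fibroblast and pericyte markers, whose cells are the main collagen producers of tissues, were mostly missing. Pdgfrb, Thy1, Lum, Dpt and Tcf21 had 0 counts in all 4 libraries, where a count of 0 allows up to 3 counts (0.15 to 0.192 CPM), and only 4 of 14 markers passed the filter. S100a4, Dcn and Pdgfra fell in shUSP9X, the last from 272 and 215 counts to 34 and 39, and the call of Dcn was lost with the offset. The list summed to 310 and 298 CPM in shCtrl and to 198 and 194 CPM in shUSP9X, with Dcn, at 168 and 167 CPM and 123 and 121 CPM, the most abundant in CPM. Endothelial markers summed to 10.7 and 11.7 CPM and to 6.88 and 7.18 CPM, led by Tek, which was lower, and Cdh5, Kdr, Erg, Cldn5 and Emcn were at 0 of 9 listed.

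Leukocyte markers set the shUSP9X libraries apart. Itgam had 72 and 75 counts, Adgre1 58 and 59, Ptprc 29 and 18 and Csf1r 17 and 13 in shUSP9X, and each had 0 in both shCtrl libraries. These 4 of 9 markers passed the filter only through shUSP9X, so their counts are given without a test. Cd68, the most abundant of the list, did not pass the test, and C1qa and Cd3e were at 0. The list summed to 4.27 and 4.36 CPM in shCtrl and 15.1 and 15.1 CPM in shUSP9X. The part of fibroblast, endothelial or leukocyte markers in the collagen results was not tested, and fewer cells of a type and less RNA per cell cannot be told apart in bulk RNA.

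Collagen transcripts were lower in shUSP9X, and the basement membrane chains that made up most of them were lower by a smaller ratio. All 44 genes together took 0.156 and 0.163% of the counts in the shCtrl libraries and 0.109 and 0.111% in the shUSP9X libraries. The mean was 1579 ± 44.2 CPM against 1108 ± 15.7 CPM (SD, n = 2), a ratio of 0.702. Fibrillar chains summed to 208 ± 9.29 CPM in shCtrl and 93.1 ± 2.69 CPM in shUSP9X (ratio 0.448), and chains of the other types to 124 ± 1.94 and 59.3 ± 0.963 CPM (ratio 0.478). Basement membrane chains summed to 1247 ± 36.9 and 956 ± 12.1 CPM (ratio 0.766).

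The makeup of the collagen transcripts differed as well. Basement membrane chains held 78.9 and 79.1% of collagen counts in shCtrl and 86.3 and 86.2% in shUSP9X. The fibrillar share was 13.0 and 13.3% in shCtrl and 8.31 and 8.49% in shUSP9X, and the share of other types was 8.09 and 7.61% against 5.34 and 5.35%. None of these shares overlapped between the groups. With 2 libraries against 2, an exact permutation test cannot reach a p of 0.05, so the shares are given without a test.

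**Figure D1:**
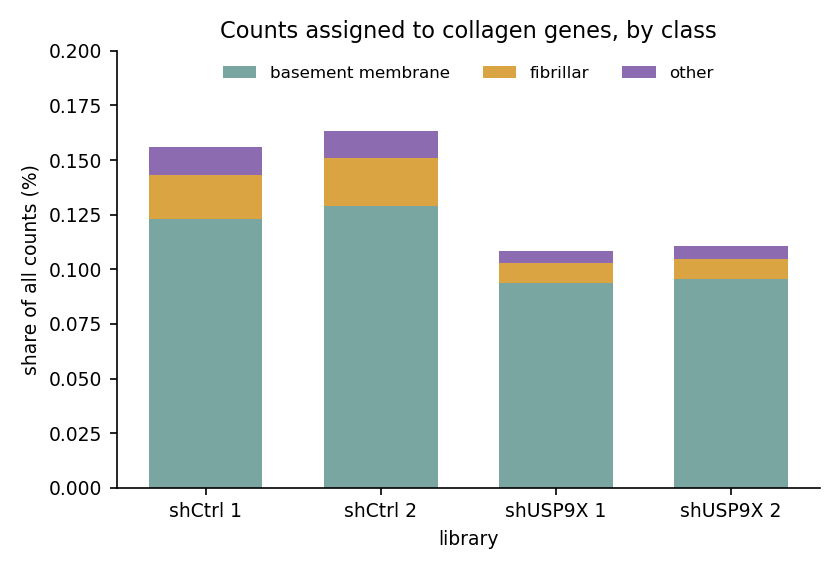
Share of all estimated counts (%) assigned to collagen genes in each of the 4 libraries, stacked by class (basement membrane, fibrillar, other). The shCtrl bars reach 0.156 and 0.163% and the shUSP9X bars 0.109 and 0.111%, with basement membrane chains the largest block in each bar.

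Of the 44 genes, 10 had 0 counts in every library and 17 more had at most 12 counts in any library and were not tested. The remaining 17, each with at least 10 counts in every library, passed the filter and were tested in the fit across all 11448 genes. Among these, 12 were lower in shUSP9X at an adjusted p under 0.05, 0 were higher and 5 did not pass, where 33.6% of all genes tested were lower and 33.8% were higher. No chain was higher at an unadjusted p under 0.05, nor by DESeq2 or limma. At the cutoff of the study's methods (fold change above 1.5 at an unadjusted p under 0.05), 10 were lower and 0 higher by edgeR, against 18.7 and 10.8% of all genes tested. By DESeq2, the tool those methods name, 10 of the same 17 chains were lower and 0 higher at this cutoff, or 12 and 0 of the 34 chains with a count that it fitted, against 13.2 and 8.32% of 14960 genes.

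The tested chains had a median log2 fold change of -0.77, ranging from -2.90 to 0.40, and the median of all genes tested was 0.00. The tested collagen transcripts were long and GC-rich beside all genes tested, with a median length of 6450 against 3064 bases and a median GC content of 57.0 against 50.3%. Once GC content and length were offset, 11 chains were lower and 0 higher (28.2 and 35.1% of all genes), with a median of -0.63. In CPM, 13 of the 17 chains had each shUSP9X value below each shCtrl value (41.0% of all genes tested), and 1 chain, Col15a1, had each above (41.2%).

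**Figure D2:**
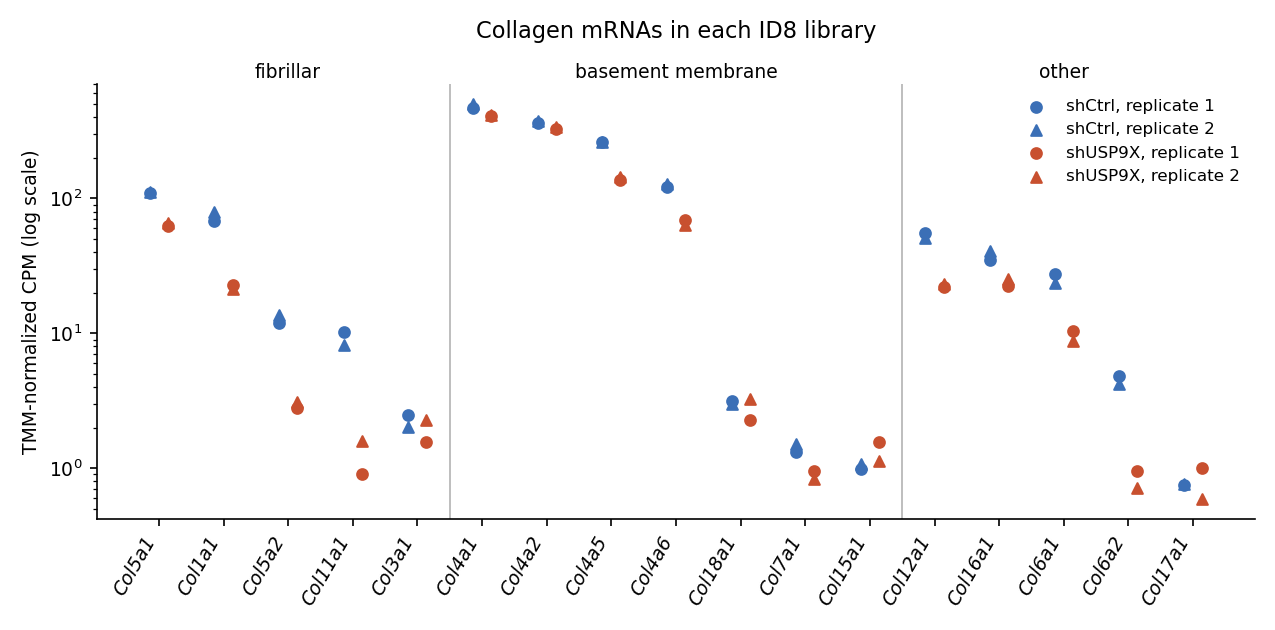
TMM-normalized CPM (log scale) of the 17 collagen chains that passed the filter, each point a library (circles, replicate 1; triangles, replicate 2; blue, shCtrl; red, shUSP9X). The 4 type IV chains that passed lie between 63.9 and 503 CPM, and 13 chains have both shUSP9X points below both shCtrl points.

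The promoter bases directly upstream of 3 chains are shown as examples from the fibrillar and basement membrane classes, all of them lower in shUSP9X. Col11a1 had a log2 fold change of -2.90, Col5a1 was the most abundant fibrillar chain and Col4a6 belongs to the basement membrane class. Each stretch holds the 250 bases before the transcription start (RefSeq, GRCm38.p6), 5′ to 3′ on the strand of the gene, at chr3:114030290-114030539 (+), chr2:27886175-27886424 (+) and chrX:141474077-141474326 (-). Capitals mark matches, on either strand, to CAGAC (the core of the Smad box), GGGCGG (the GC box) or CCAAT (the CCAAT box).
Col11a1: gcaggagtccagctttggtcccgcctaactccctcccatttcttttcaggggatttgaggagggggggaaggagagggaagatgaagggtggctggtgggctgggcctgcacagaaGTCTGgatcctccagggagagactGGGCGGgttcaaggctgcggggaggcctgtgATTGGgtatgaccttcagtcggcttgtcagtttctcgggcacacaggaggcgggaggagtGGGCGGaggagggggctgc
Col5a1: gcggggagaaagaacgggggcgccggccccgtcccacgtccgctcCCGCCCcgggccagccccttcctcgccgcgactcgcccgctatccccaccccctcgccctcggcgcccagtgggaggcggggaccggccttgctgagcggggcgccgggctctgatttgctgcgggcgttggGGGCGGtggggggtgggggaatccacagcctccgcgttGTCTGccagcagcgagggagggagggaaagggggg
Col4a6: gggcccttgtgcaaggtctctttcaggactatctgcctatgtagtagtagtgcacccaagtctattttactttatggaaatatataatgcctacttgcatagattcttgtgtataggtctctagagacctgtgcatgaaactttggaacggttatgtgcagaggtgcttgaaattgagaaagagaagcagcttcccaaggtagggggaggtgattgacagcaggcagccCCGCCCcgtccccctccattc

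In all, 16 windows of 300 bases around a start were found for 14 of the 17 tested chains, not for Col1a1, Col5a2 and Col12a1. CAGAC (or GTCTG) was present in 8 of the 16 windows and in 49.6% of all 32851 promoter windows. GGGCGG (or CCGCCC) was present in 11 of the 16, against 35.7% of all windows, and CCAAT (or ATTGG) in 8, against 37.4%. TATAAA (or TTTATA) was present in 2 of the 16, those of Col3a1 and Col17a1, against 13.6% of all windows. CAGAC was found for Col11a1, Col5a1, Col4a2 and Col6a2, which were lower, and for Col3a1, Col7a1, Col15a1 and Col18a1, which did not pass the test. It was not found for the lower chains Col4a1, Col4a5, Col4a6, Col6a1 and Col16a1. A relation between motifs and calls was not tested. The matches in capitals do not overlap each other, and a match to letters is not a bound site.

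Fibrillar chains differed between the groups by unequal amounts. Of 11 listed, 5 were tested and 4 of them, Col1a1, Col5a1, Col5a2 and Col11a1, were lower in shUSP9X, against 33.6% of all genes tested. The class median was -1.72 on the log2 scale (-1.04 on log2(FPKM + 1), with 3 chains). Col1a1 (ENSMUSG00000001506, chr11:94936224-94953042) encodes the major chain of type I collagen, the bulk fibril of skin, bone and tumour stroma. It was measured at 67.7 and 78.7 CPM in shCtrl and 22.9 and 21.5 CPM in shUSP9X. All shCtrl values were far above the shUSP9X values, a 3.29-fold lower level (log2 fold change -1.72, SE 0.08, adjusted p = 4.5e-16). The companion chain of type I, Col1a2 (chr6:4504814-4541544), was close to absent, with 1, 0, 0 and 12 counts over shCtrl 1, shCtrl 2, shUSP9X 1 and shUSP9X 2.

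Types V and XI are the minor fibrillar collagens that seed fibrils and set their diameter. Col5a1 (ENSMUSG00000026837, chr2:27886425-28039514) was at 109 and 111 CPM in shCtrl and 62.9 and 65.4 CPM in shUSP9X. Its groups were well apart, and the level was 1.71-fold lower (log2 fold change -0.77, SE 0.05, adjusted p = 1.7e-12). Exons of Col5a1 share 99 and 113 bases with 2810430I11Rik and Gm13372 on the opposite strand, and reads there cannot be assigned without strand.

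Col5a2 (ENSMUSG00000026042, chr1:45374321-45503282), the second chain of the common type V trimer, had 208 and 217 counts in shCtrl against 55 and 52 in shUSP9X. This was a 4.38-fold lower level with no overlap (log2 fold change -2.13, SE 0.18, adjusted p = 6.8e-11), which read -1.04 on the log2(FPKM + 1) scale, where low genes are compressed. Col11a1 (ENSMUSG00000027966, chr3:114030540-114220718), which forms type XI and mixed type V/XI trimers, had the most negative log2 fold change of the tested collagens in this fit. However, Col6a2 was lower without the first shUSP9X library (-2.66 against -2.52) and equal with the offset (-2.53 each). With the offset and a replicate block, Col6a2 was again lower (-2.55 against -2.53). The counts of Col11a1 were 177 and 130 in shCtrl and 18 and 27 in shUSP9X, or 10.2 and 8.22 CPM against 0.911 and 1.60 CPM. The level was 7.44-fold lower (log2 fold change -2.90, SE 0.26, adjusted p = 1.8e-10), and both shUSP9X libraries were low.

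Col3a1 (chr1:45311538-45349706), the chain of type III collagen that often accompanies type I, was low in every library, at 43 and 32 counts in shCtrl against 31 and 38 in shUSP9X. Its groups overlapped, and the log2 fold change of -0.25 had a 95% interval from -0.93 to 0.43 (adjusted p = 0.515). The other fibrillar chains, Col2a1, Col5a3, Col11a2 and Col27a1, had at most 12 counts in a library, and Col24a1 had 0 in all. Col5a1 and Col1a1 thus held most fibrillar counts, with Col5a2, Col11a1 and Col3a1 below them.

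Basement membrane chains were the most abundant collagens, and 4 of the 7 tested were lower, against 33.6% of all genes tested. At the study's cutoff 2 of the 7 were lower (18.7% of all genes), and with the offset 3 were (28.2%). The 4 lower chains were all of type IV, and the class median was -0.23. That median was -0.49 with either shUSP9X library left out, where 8 chains were fitted, and -0.64 for all 9 chains with no filter beyond 1 count. The 4 lower chains split into a pair with small differences and a pair with larger ones. Col4a1 (ENSMUSG00000031502, chr8:11198423-11312826) and Col4a2 (ENSMUSG00000031503, chr8:11312805-11449287) encode the chains of the type IV network found in nearly every basement membrane, and their annotated starts lie 21 bases apart on opposite strands. Col4a1 was at 465 and 503 CPM in shCtrl and 411 and 414 CPM in shUSP9X. The groups did not overlap, but the level was only 1.17-fold lower (log2 fold change -0.23, SE 0.04, adjusted p = 8.1e-06). On log2(FPKM + 1) and log2(FPKM + 0.1) the difference of Col4a1 read -0.36.

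Col4a2 was at 364 and 376 CPM in shCtrl and 325 and 336 CPM in shUSP9X. The log2 fold change was -0.16 (SE 0.04, adjusted p = 0.00052), a 1.12-fold lower level. This call was lost with the GC content and length offset (-0.04, adjusted p = 0.281) and without the first shUSP9X library (-0.13, adjusted p = 0.057). Exons of Col4a1 and Col4a2 share 22 bases.

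Col4a5 (ENSMUSG00000031274, chrX:141475385-141689234) and Col4a6 (ENSMUSG00000031273, chrX:141165403-141474076) lie head to head on the X chromosome, 1343 bases apart between their RefSeq starts, and their products assemble with each other in selected epithelial basement membranes. Col4a5 was at 264 and 260 CPM in shCtrl and 137 and 145 CPM in shUSP9X, 1.86-fold lower (log2 fold change -0.90, SE 0.04, adjusted p = 6.6e-16). Col4a6 was at 122 and 128 CPM in shCtrl and 69.1 and 63.9 CPM in shUSP9X, 1.88-fold lower (log2 fold change -0.91, SE 0.06, adjusted p = 7.4e-14). Both neighbours were lower in both shUSP9X libraries. The 95% interval of Col4a5 (-0.99 to -0.81) and that of Col4a1 (-0.31 to -0.15) do not meet, although no test between genes was made.

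Type IV chains of the kidney and other specialised membranes, Col4a3 and Col4a4, were barely detected. Col4a4 (chr1:82448423-82586849) had 5 and 12 counts in shCtrl and 0 in both shUSP9X libraries. The shCtrl mean was 3.21-fold above a floor of 3 counts per shUSP9X library (1.77-fold from the first shCtrl library alone and 4.65-fold from the second). Counting error of the shCtrl libraries is not included in these ratios, and the gene was not tested. Col4a3, with which Col4a4 and Col4a5 form a trimer, had 3, 0, 1 and 0 counts.

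The other basement membrane collagens were scarce and did not pass the test. Col7a1 (chr9:108953586-108984875), the anchoring fibril chain, had 23 and 24 counts in shCtrl against 19 and 14 in shUSP9X (log2 fold change -0.65, 95% interval -1.51 to 0.21, adjusted p = 0.17). Col15a1 (chr4:47208161-47313167) had 17 and 17 counts in shCtrl against 31 and 19 in shUSP9X (0.40, -0.45 to 1.26, adjusted p = 0.40). Col18a1 (chr10:77052178-77166548), whose C-terminal fragment is endostatin, had 55 and 47 counts in shCtrl against 45 and 55 in shUSP9X, with overlapping groups (-0.16, -0.75 to 0.43, adjusted p = 0.635). The intervals of these low-count chains are wide.

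**Figure D3:**
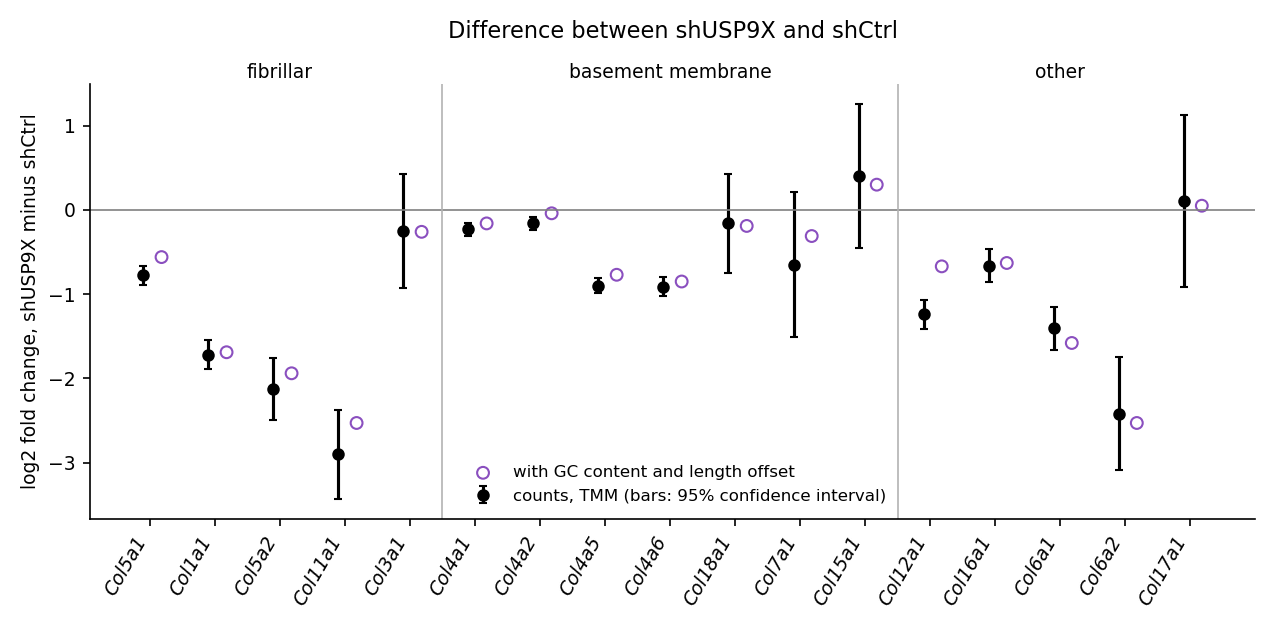
Log2 fold change (shUSP9X minus shCtrl) of the 17 tested collagen chains by class, with filled points for the fit to TMM-normalized counts (bars, 95% confidence interval) and open points for the fit with the GC content and length offset. Col11a1 lies lowest at -2.90, Col4a1 and Col4a2 lie near 0, and the intervals of Col3a1, Col18a1, Col7a1, Col15a1 and Col17a1 cross 0.

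Among the other types, 4 of 5 tested chains were lower, against 33.6% of all genes tested, with a class median of -1.24. The median was -0.67 for the same 5 chains with the offset and -0.54 for 7 chains without the second shCtrl library. Type VI collagen forms beaded filaments between fibrils and cells. Col6a1 (ENSMUSG00000001119, chr10:76708792-76726168) was at 27.4 and 23.6 CPM in shCtrl and 10.5 and 8.72 CPM in shUSP9X. It was 2.65-fold lower with no overlap (log2 fold change -1.40, SE 0.12, adjusted p = 1.5e-10).

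Col6a2 (ENSMUSG00000020241, chr10:76595762-76623630), its partner, had 84 and 67 counts in shCtrl against 19 and 12 in shUSP9X. It was 5.35-fold lower (log2 fold change -2.42, SE 0.33, adjusted p = 3.3e-07). Col6a3, the third chain of the classical type VI trimer, stood at 9, 6, 12 and 8 counts and was not tested, Col6a6 had at most 1 count, and Col6a4 and Col6a5 had 0.

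FACIT collagens attach to the surface of fibrils. Col12a1 (ENSMUSG00000032332, chr9:79598991-79718831), associated with type I fibrils under tension, had 961 and 807 counts in shCtrl against 435 and 389 in shUSP9X. Both shUSP9X values were low, 2.36-fold on average (log2 fold change -1.24, SE 0.08, adjusted p = 5.0e-13). With the GC content and length offset the difference was -0.67 (adjusted p = 2.7e-08), and the Col12a1 transcript is 11511 bases long with 48.3% GC.

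Col16a1 (ENSMUSG00000040690, chr4:130047840-130099283) was at 34.9 and 40.6 CPM in shCtrl and 22.5 and 25.5 CPM in shUSP9X. It was 1.57-fold lower without overlap (log2 fold change -0.66, SE 0.10, adjusted p = 1.2e-06). The remaining FACIT chains had at most 10 counts in a library, with Col9a1, Col9a2 and Col19a1 at 0.

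Transmembrane and short-chain collagens were nearly silent. Col17a1 (chr19:47646344-47692094), a hemidesmosome component, had 13 and 12 counts in shCtrl against 20 and 10 in shUSP9X, with overlapping groups (log2 fold change 0.11, 95% interval -0.91 to 1.13, adjusted p = 0.857). Col8a1 had 3 and 7 counts in shCtrl and 0 in both shUSP9X libraries, and Col10a1 had 2 and 2 against 0. The transmembrane chains Col13a1, Col23a1 and Col25a1, and Col26a1, were at 0 throughout.

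Levels of different chains were compared in FPKM, the deposited value scaled for transcript length and library size. In shCtrl the order was Col4a1 (102.501 and 118.163 as lowest and highest), Col4a2 (56.754 to 59.031), Col4a5 (42.781 to 43.076), Col5a1 (22.552 to 23.106), Col4a6 (18.48 to 19.541), Col1a1 (11.489 to 13.448), Col16a1 (9.133 to 10.414), Col6a1 (5.828 to 6.723) and Col12a1 (5.439 to 5.461), and no neighbours among these overlapped. Further down, Col18a1 overlapped Col5a2, Col11a1, Col6a2 and Col3a1, and Col15a1 overlapped Col3a1. Type IV chains thus filled the first 3 places. In CPM per kilobase of the annotated transcript, Col4a6 stood above Col5a1 (18.8 against 13.1), so that pair depends on the length used.

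In shUSP9X the first 5 places were held by the same chains in the same order, from Col4a1 at 85.193 to 85.923 FPKM down to Col4a6 at 9.509 to 10.277 FPKM. Col16a1 (5.426 to 5.85 FPKM) stood above Col1a1 (3.586 to 3.815 FPKM), the reverse of shCtrl. Col5a2, at 0.416 to 0.461 FPKM, overlapped Col15a1 and Col3a1, and Col11a1, at 0.162 to 0.207 FPKM, lay below all of them. The FPKM of Col18a1 (2.266, 0.788, 0.804 and 1.674 over shCtrl 1 and 2 and shUSP9X 1 and 2) moved apart from its counts and gave no order.

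Ratios between chains that share a trimer differed little between groups within type IV and by more within types V and VI, with no test of the ratios. The Col4a1 to Col4a2 ratio in FPKM was 1.81 and 2.0 in shCtrl and 1.71 and 1.66 in shUSP9X, and that of Col4a5 to Col4a6 was 2.33 and 2.19 against 2.11 and 2.41. The former did not overlap between groups and the latter did. The Col5a1 to Col5a2 ratio was 12.7 and 10.7 in shCtrl and 32.7 and 32.6 in shUSP9X, since Col5a2 was lower by more. For Col6a1 to Col6a2 the ratio was 5.47 and 5.49 in shCtrl and 11.5 and 12.6 in shUSP9X. Ratios of counts showed the same order (9.05 and 8.07 against 22.6 and 21.2 for type V, 5.65 and 5.57 against 10.9 and 12.2 for type VI).

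**Figure D4:**
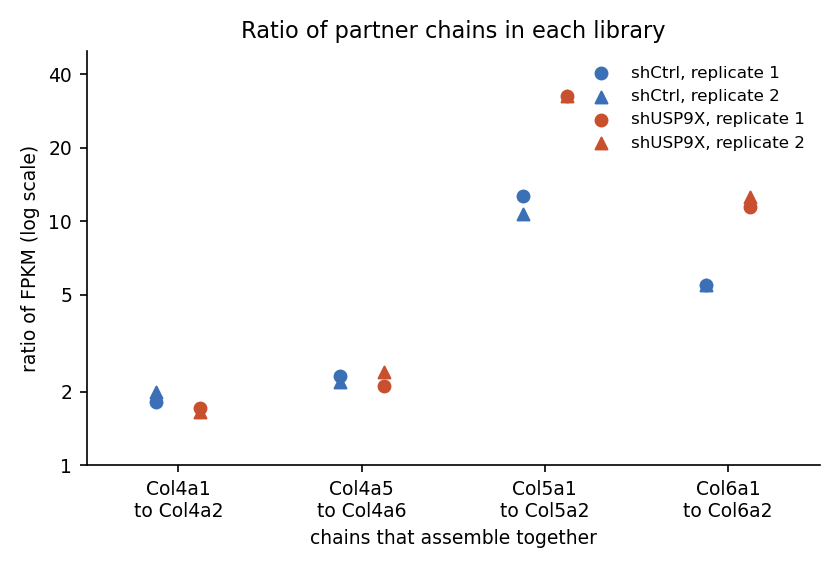
Ratio of FPKM (log scale) between partner chains in each library (circles, replicate 1; triangles, replicate 2; blue, shCtrl; red, shUSP9X). The type IV ratios stay between 1.66 and 2.41, and the type V and type VI ratios are higher in both shUSP9X libraries than in both shCtrl libraries.

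Genes that act on collagen after transcription were followed in 6 lists, read against the 33.6% of all genes that were lower and the 33.8% that were higher (28.2 and 35.1% with the offset). Hydroxylases and chaperones fold and modify procollagen, and 8 of 19 tested were lower and 6 higher (median log2 fold change -0.03), or 13 and 3 once GC content and length were offset. Fkbp14, a prolyl isomerase of the endoplasmic reticulum, was at 45.1 and 37.7 CPM in shCtrl and 19.2 and 18.7 CPM in shUSP9X (-1.13, SE 0.10, adjusted p = 1.1e-10, or -0.69 with the offset). Plod2, the lysyl hydroxylase of the telopeptides, was at 182 and 181 CPM against 98.5 and 98.4 CPM (-0.89, SE 0.05, adjusted p = 3.9e-15, or -0.38 with the offset). P4ha2, a prolyl hydroxylase subunit, fell by 0.65 on the log2 scale (SE 0.07, adjusted p = 8.2e-09).

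The same list held genes that rose. Plod3, a lysyl hydroxylase and glycosyltransferase, was at 61.8 and 64.3 CPM in shCtrl and 92.9 and 96.3 CPM in shUSP9X (0.59, SE 0.06, adjusted p = 9.3e-10, or 0.37 with the offset). Crtap, of the prolyl 3-hydroxylation complex, rose by 0.51 (SE 0.07, adjusted p = 2.5e-07), or 0.15 with the offset. Colgalt1, a collagen galactosyltransferase, rose by 0.27 (SE 0.04, adjusted p = 6.7e-06), a call lost with the offset (0.02, adjusted p = 0.601). Sparc, a collagen-binding matricellular protein, was the list's gene of highest FPKM. It was at 1317 and 1273 CPM against 1225 and 1232 CPM (-0.08, adjusted p = 0.0308), a call lost under 6 of 15 alternatives. With the offset Sparc was lower by more (-0.30, adjusted p = 2.1e-10).

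Export of procollagen needs enlarged COPII carriers, and 7 of 16 tested genes were lower and 3 higher (median -0.09), or 6 and 6 with the offset. Mia3, which encodes TANGO1, the receptor that loads procollagen into these carriers, was at 187 and 190 CPM in shCtrl and 82.8 and 90.5 CPM in shUSP9X. This was the largest difference of the list (-1.12, SE 0.05, adjusted p = 1.2e-16), and both shUSP9X libraries lay far below. Its partner Mia2 was at 84.2 and 82.9 CPM against 57.9 and 56.6 CPM (-0.54, SE 0.06, adjusted p = 5.9e-09, or -0.22 with the offset). Trappc2, which binds TANGO1, was lower by the test (-0.43, adjusted p = 0.00607), a call lost with the offset (0.16, adjusted p = 0.285), without the first shUSP9X library (-0.33, adjusted p = 0.0902) and by DESeq2 (adjusted p = 0.102).

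The COPII coat genes Sec23b (0.34, adjusted p = 5.3e-07) and Sec31a (0.27, adjusted p = 6.7e-07, or 0.16 with the offset) rose by smaller amounts on the log2 scale. Sec13, the third coat gene that was higher and the list's gene of highest FPKM, was at 134 and 144 CPM in shCtrl and 153 and 157 CPM in shUSP9X (0.16, adjusted p = 0.00521), and its direction turned with the offset (-0.17, adjusted p = 0.00178). The call of Sec13 was also lost without the second shUSP9X library (0.15, adjusted p = 0.0667) and by limma on both FPKM scales (0.13 each, adjusted p = 0.0555 and 0.0567).

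Of 17 genes for the trimming and cross-linking of collagen, enzymes and their enhancers, 13 were tested. Without Adamts2, 6 of 12 were lower and 4 higher (median -0.18), and Mep1b, Tll1 and Tll2 had 0 counts. Adamts3, a procollagen N-proteinase, was at 9.86 and 11.1 CPM in shCtrl and 4.76 and 4.81 CPM in shUSP9X (-1.13, SE 0.17, adjusted p = 1.8e-06, or -0.69 on log2(FPKM + 1)). Adamts2, another N-proteinase named after its values were seen, had 24 and 33 counts in shCtrl against 5 and 1 in shUSP9X and passed the filter only through shCtrl, so it is given without a test. The lysyl oxidases Lox and Loxl2 start covalent cross-links. Loxl2 was at 336 and 337 CPM against 206 and 206 CPM (-0.71, SE 0.04, adjusted p = 7.7e-15) and kept that value with the offset, whereas Lox, at 348 and 354 CPM against 213 and 215 CPM (-0.71, SE 0.04, adjusted p = 5.9e-15), read -0.23 with it.

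Higher in this list were Tgm2, a transglutaminase (73.1 and 79.6 CPM against 125 and 116 CPM; 0.66, SE 0.06, adjusted p = 8.6e-11), Loxl4 (0.41, adjusted p = 1.1e-05, or 0.21 with the offset) and the C-proteinase enhancer Pcolce2 (0.36, adjusted p = 3.6e-06, or 0.58 with the offset). Pcolce, the list's gene of highest FPKM, was higher by 0.17 (adjusted p = 0.00039) and turned with the offset (-0.15, adjusted p = 0.00044), and its call was lost by limma on both FPKM scales (0.13 each, adjusted p = 0.0634 and 0.0642).

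Among proteins that bind fibrils or basement membranes, 7 of 16 were tested, 4 were lower and 1 was higher (median -0.21), or 3 and 2 with the offset, and Lum, Fmod, Kera and Nid2 had 0 counts. Fn1, fibronectin, on which cells deposit collagen fibrils, was at 1547 and 1583 CPM in shCtrl and 521 and 549 CPM in shUSP9X. This was the largest fall of the list, with groups far apart (-1.55, SE 0.03, adjusted p = 2.8e-23). Hspg2, perlecan, the heparan sulfate proteoglycan of basement membranes, was at 1515 and 1696 CPM against 980 and 1008 CPM (-0.69, SE 0.04, adjusted p = 1.1e-14, or -0.15 with the offset). Tnxb, tenascin X, was higher at 42.1 and 47.9 CPM against 18.3 and 21.3 CPM in shCtrl (1.18, SE 0.10, adjusted p = 2.6e-11). Dcn, decorin, was lower by the test (-0.46, adjusted p = 1.8e-09), a call lost with the offset (0.00, adjusted p = 0.964). Bgn, biglycan, was the list's gene of highest FPKM. It was at 541 and 560 CPM against 514 and 526 CPM (-0.08, adjusted p = 0.0398), a call lost under 6 of 15 alternatives. With the offset Bgn was lower by more (-0.29, adjusted p = 3.4e-09).

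Collagen receptors gave 4 lower and 0 higher of 8 tested (median -0.44) by edgeR, and 3 lower and 2 higher with the offset. Itgb1, the common beta subunit of the collagen-binding integrins and the list's gene of highest FPKM, was at 554 and 565 CPM in shCtrl and 472 and 460 CPM in shUSP9X (-0.26, SE 0.03, adjusted p = 2.2e-07), a call lost with the offset (0.04, adjusted p = 0.231). Adgrg6, a receptor for type IV collagen, was lower (-0.47, adjusted p = 8.4e-08) and turned with the offset (0.16, adjusted p = 0.0149). The low-count genes Mrc2 (-1.24, adjusted p = 0.00032) and Adgrg1 (-1.25, adjusted p = 0.00138) were the others lower, named after their values were seen. The discoidin domain receptors Ddr1 (-0.02, adjusted p = 0.686) and Ddr2 (0.10, adjusted p = 0.694) did not pass, although Ddr2 was higher with the offset (0.77, adjusted p = 0.00194) and Ddr1 lower (-0.14, adjusted p = 0.00185). The integrin subunit Itga1 and the platelet receptor Gp6 had 0 counts.

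Of the collagenases, gelatinases and their inhibitors, 5 of 11 were tested, with Mmp1a and Mmp8 at 0. Among these, 4 were higher, Mmp13 and the inhibitors Timp1, Timp2 and Timp3, and 1 was lower (median 0.24). With the offset 3 were higher and 1 lower. Mmp13, an interstitial collagenase, had 100 and 72 counts in shCtrl against 501 and 429 in shUSP9X. In CPM this was 5.77 and 4.55 against 25.3 and 25.5 (2.29, SE 0.14, adjusted p = 4.5e-14). Over the alternatives the difference of Mmp13 ran from 1.82 to 2.97, and it was 2.97 with the offset. Mmp14, the membrane-bound collagenase, was lower, with 194 and 194 counts in shUSP9X against 274 and 222 in shCtrl (-0.49, SE 0.13, adjusted p = 0.00214, or -0.75 with the offset), a call lost without the first shUSP9X library (adjusted p = 0.0513) and by DESeq2 (adjusted p = 0.0556). The inhibitors Timp1 (0.58, adjusted p = 4.3e-08, or 0.21 with the offset) and Timp3 (0.24, adjusted p = 1.3e-06, or 0.43 with the offset) rose. Timp2, the list's gene of highest FPKM, was higher by 0.17 (adjusted p = 2.9e-05), a call lost with the offset (-0.02, adjusted p = 0.537).

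**Figure D5:**
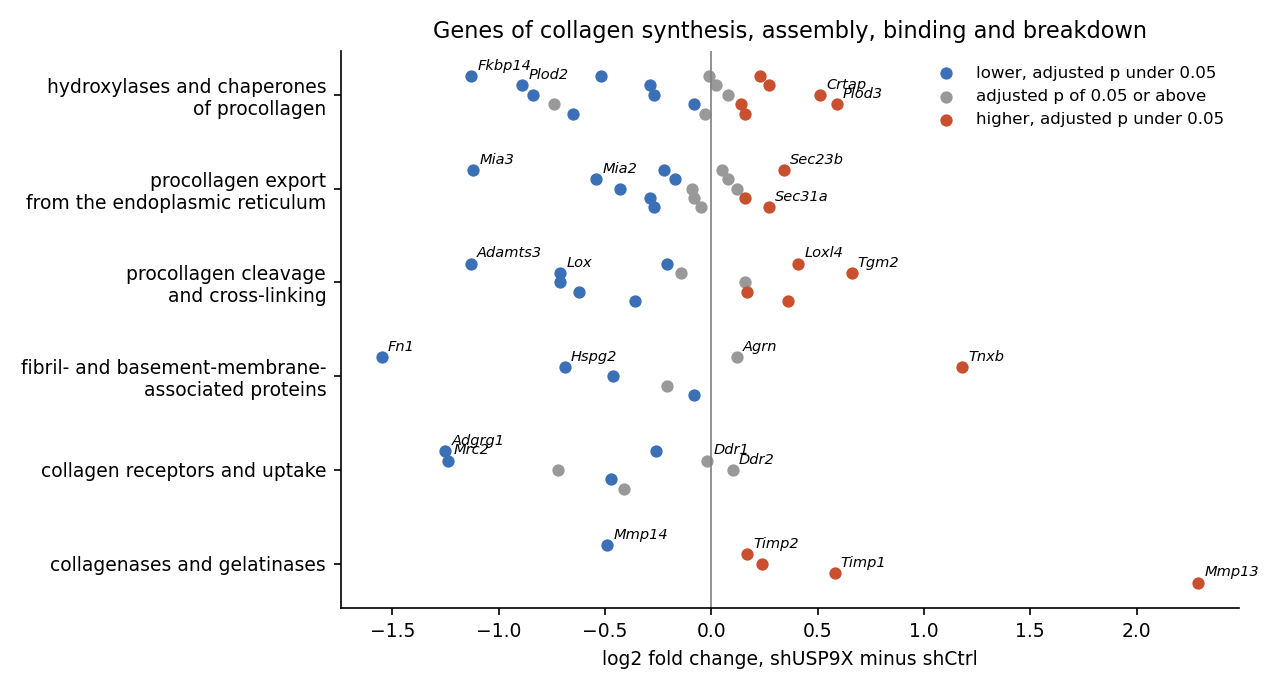
Log2 fold change (shUSP9X minus shCtrl) of the tested genes in 6 lists of collagen synthesis, assembly, binding and breakdown, coloured by the call of edgeR's quasi-likelihood test (blue, lower; red, higher; grey, adjusted p of 0.05 or above). Mmp13 lies farthest to the right at 2.29, and Mia3 and Fn1 lie leftmost in the export and associated-protein lists at -1.12 and -1.55. Adamts2, given without a test, is not plotted.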

How the data were processed

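Total RNA of 4 ID8 libraries was enriched for mRNA and sequenced. The submitters' processing notes name fastp 0.18.0, Bowtie2 2.2.8, HISAT2, StringTie 1.3.1 and RSEM without their roles, and the study's methods give GRCm38. For each gene the authors deposited an estimated count in every library, not normalized, beside an FPKM value. Strand use in counting is not given in the sources used here. Values that were not whole made up 6.40 to 6.69% of each library. The test had been planned for whole-number counts, so the deposited estimated counts were rounded and the same test was used.

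Collagen genes were matched by symbol, and no other gene matched. The members and all lists were chosen with earlier results of these data known. Genes were named when they were collagens with an adjusted p under 0.05 or a mean of at least 100 counts, or, in each partner list, the 3 largest falls, the 3 largest rises (adjusted p under 0.05, mean of at least 100 counts) and the gene of highest mean FPKM. Others were named after their values were seen.

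Low counts were removed by filterByExpr, and the rest were scaled by TMM and tested in edgeR 4.0.16 (quasi-likelihood, R 4.3.3, no replicate block), with Benjamini-Hochberg adjustment over 11448 genes. The common biological coefficient of variation was 0.0352. Replicate libraries differed beyond sampling noise (chi-square per gene 3.35 and 2.23). Coordinates, GC content and length came from GENCODE M21 (21973 identifiers matched), promoters from RefSeq. The offset subtracts a loess trend (span 0.3) of each library on GC content and transcript length, known for 99.8% of tested genes. Alternatives were DESeq2 1.42.0, other scalings and filters, limma 3.58.1 on log2(FPKM + 1) or log2(FPKM + 0.1) where the mean FPKM reached 1, the offset, a replicate block and each library left out. The test was checked on simulated data. Molecular identifiers are not described, so floors cover counting error only.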

Additional observations from a re-analysis of the deposited data

How the results depend on the processing

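The number of collagen genes lower in shUSP9X was 12, between 10 and 14 over 15 alternatives (12 to 13 with a library left out), and 0 were higher in each. Of the 12 genes, 11 were called lower in every fit that tested them, the exception being Col4a2. Fibrillar chains (-1.72) gave -1.80 with no filter beyond 1 count, -1.66 with DESeq2, -1.04 on log2(FPKM + 1) and -2.02 to -1.60 with a library left out. Basement membrane chains (-0.23) gave -0.64 with no filter, -0.65 with DESeq2, -0.36 on both FPKM scales and -0.49 to -0.20 with a library left out. Other chains (-1.24) gave -0.85 with no filter, -0.67 with the GC content and length offset, -0.89 with DESeq2, -1.09 and -1.38 on log2(FPKM + 1) and log2(FPKM + 0.1), and -1.0 to -0.54 with a library left out. With a library left out, Col18a1 ranged from -0.42 to 0.09, Col3a1 from -0.51 to 0.00 and Col17a1 from -0.34 to 0.43. The values of 0.09, 0.00 and -0.34 were those without the first shUSP9X library. Col15a1 ranged from 0.14, also without that library, to 0.62. With the offset, directions turned at an adjusted p under 0.05 for these genes named by rule: Sec13 (-0.17), Pcolce (-0.15) and Adgrg6 (0.16). Trappc2 (0.16), Itgb1 (0.04) and Timp2 (-0.02) changed sign and Dcn read 0.00, and none of these passed the test with the offset. Krt19 (-0.23) and, of the hydroxylase and chaperone list, Ppib (-0.19) were called higher without the offset and turned as well. Plod1 (-0.02) of that list, also called higher without the offset, changed sign and did not pass with it. The number of chains fitted differs between some of these settings, and the cause of the moves was not tested.

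Libraries of the same number did not deviate together over genes (correlation -0.0453), and whether the numbers pair them is not given. With a replicate block, 12 collagen genes were lower and 0 higher, and the class medians were -1.71, -0.23 and -1.24. The block with the offset gave 11 lower and -0.67 for other chains. Trappc2, Sec13, Pcolce, Dcn, Adgrg6, Itgb1 and Timp2 then read 0.16, -0.17, -0.15, 0.00, 0.16, 0.04 and -0.02. The 27 untested chains had at most 12 counts in any library, and how far depth limits them was not tested.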
